A study of Mus musculus with 8 samples.

Results

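The 10 tissue-restricted miRNAs described here were followed through sorted cells of the mouse thymus to see whether medullary thymic epithelial cells (mTECs) show them. They were mmu-miR-1, mmu-miR-133a, mmu-miR-133b and mmu-miR-206 of muscle, mmu-miR-122 of liver, mmu-miR-124 and mmu-miR-9 of brain, and mmu-miR-375, mmu-miR-216a and mmu-miR-217 of pancreas, written without the species prefix where possible. All 10 were taken by name from the 1040 mouse probes of the deposited table, in which each has 1 probe, and each probe was then read in the scanner output of all 8 microarrays. Thymic cells came from female NOD wildtype mice of 4 weeks, a strain prone to autoimmune diabetes, with no transgene, deletion or treatment in any group. The groups were CD45+ cells (EpCAM-, the hematopoietic cells of the thymus, 3 arrays), cortical thymic epithelial cells (cTECs, CD45-, EpCAM+, MHC II+, Ly51+, 2 arrays) and mTECs (the same gate but Ly51-, 3 arrays). Each isolation pooled the thymi of 10 to 12 mice, which makes every replicate a pool rather than an animal. The mTEC gate does not separate Aire+ from Aire- cells.

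The mTECs are known for promiscuous gene expression: they transcribe many protein-coding genes whose products are otherwise made in single peripheral tissues, in part under the control of Aire, and present them to developing thymocytes. Any one such gene is usually active in a small share of mTECs. In a bulk sample of sorted cells, fewer cells that make a miRNA and less of it per cell cannot be told apart.

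The sequences below show which of the 10 miRNAs an array can tell from each other. For the 5 whose mature sequence was matched to the RefSeq records of build GRCm38.p6, it is given 5′ to 3′ with the seed, bases 2 to 8, in capitals. For miR-375 the deposited probe is shown instead, without its tail of 10 thymines, and its capitals mark the bases that pair with the seed.
miR-206: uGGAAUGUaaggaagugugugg
miR-133b: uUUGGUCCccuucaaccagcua
miR-9: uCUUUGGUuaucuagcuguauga
miR-216a: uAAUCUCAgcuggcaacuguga
miR-217: uACUGCAUcaggaacugacugga
miR-375 probe: gtcacgcgagccgaaCGAACAAa

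The miR-375 probe has 23 bases before its tail, of which 22 pair with the RefSeq hairpin of Mir375. No other mouse probe of the table carries the complement of the miR-375 or the miR-9 seed. The muscle miRNAs share seeds in pairs, miR-206 with miR-1 and miR-133b with miR-133a. The probes of miR-133a and miR-133b differ at 1 of 33 positions, C2T, counted from 1 at the probe's 5′ end with the base of the miR-133a probe first. With a single mismatch near the probe's end either miRNA may bind both probes, and their 2 signals are not read here as separate evidence. The probes of miR-1 and miR-206 differ at 4 positions, A2C, T3C, T7C and T13C with the base of the miR-1 probe first, so that some signal may be shared there too. The pancreatic miR-216a and miR-217 have different seeds.

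In build GRCm38.p6, Mir375 lies on chromosome 1 from 74900658 to 74900721, between the protein-coding genes Cryba2 and Cfap65 and inside neither. Mir206 (chromosome 1, 20679010 to 20679082) and Mir133b (20682769 to 20682887) lie 3686 bases apart within the long noncoding RNA gene Lincmd1. Mir216a (chromosome 11, 28757012 to 28757083) and Mir217 (28763728 to 28763835) are separated by 6644 bases within the noncoding gene Gm40818. The 3 genes that give miR-9, on chromosomes 3, 7 and 13, each overlap a long noncoding RNA gene.

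Each probe had 5 spots per array. The scanner software marks a spot as well above background, and a miRNA was counted on an array when most of its spots that were no outliers had this mark. Of the 1040 mouse probes, the CD45+ arrays detected 169 to 229 in this way, the cTEC arrays 122 and 98, and the mTEC arrays 236 to 325. None of the 616 negative control spots was. Before scaling, the median processed signal (the intensity left after the software's background subtraction) over all mouse probes was 51.5 to 58.6 for CD45+ cells, 39.9 and 68.5 for cTECs and 74.5 to 87.2 for mTECs. The lowest signal well above background was 109 to 163 for mTECs, 158 to 209 for CD45+ cells, and 172 and 147 for cTECs. The mTEC arrays had the most probes detected.

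Of the 10 miRNAs, 8 were well above background on at least 1 mTEC array, where 38.8% of all mouse probes were. Only 3 of the 10 were on at least 1 cTEC array (13.6% of all mouse probes) and 1 of the 10 on at least 1 CD45+ array (22.1% of all mouse probes). Counted over every pairing of a miRNA with an array, 17 of 30 were well above background in mTECs (56.7%, against 27.1% for all mouse probes), 3 of 20 in cTECs (15%, against 10.6%) and 1 of 30 in CD45+ cells (3.33%, against 18.9%). By array, mTEC replicates 1 and 3 each showed 7 of the 10, beside 27.5% and 31.2% of all mouse probes, and mTEC replicate 2 showed 3, beside 22.7%. In these and later counts of the 10, miR-133a and miR-133b stand as separate members, as do miR-1 and miR-206. Each pair may share signal, so such counts can overstate how many miRNAs were seen.

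The stricter rule asked for every array of a group. By it, miR-1, miR-206 and miR-375 were detected in mTECs, a rule that 16% of all mouse probes met. None of the 10 was detected on every cTEC array (7.6% of all mouse probes) or every CD45+ array (16.1%). Of the 10, 9 were on no CD45+ array (77.9% of all mouse probes), and 7 of the 10 on no cTEC array (86.4%). The pancreatic acinar miRNAs miR-216a and miR-217 were the 2 seen on no mTEC array (61.2% of all mouse probes) and on no array at all (59.8%). On at least 2 mTEC arrays and nowhere else were miR-133a, miR-133b, miR-9 and miR-375, where 5.87% of all mouse probes stood. Only miR-375 was on every mTEC array and on no other, a pattern of 17 mouse miRNAs or 1.63%. Without mTEC replicate 2, the array with the fewest of them, 6 of the 10 were on every mTEC array (miR-1, miR-133a, miR-133b, miR-206, miR-9 and miR-375, against 24.9% of all mouse probes).

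**Figure D1:**
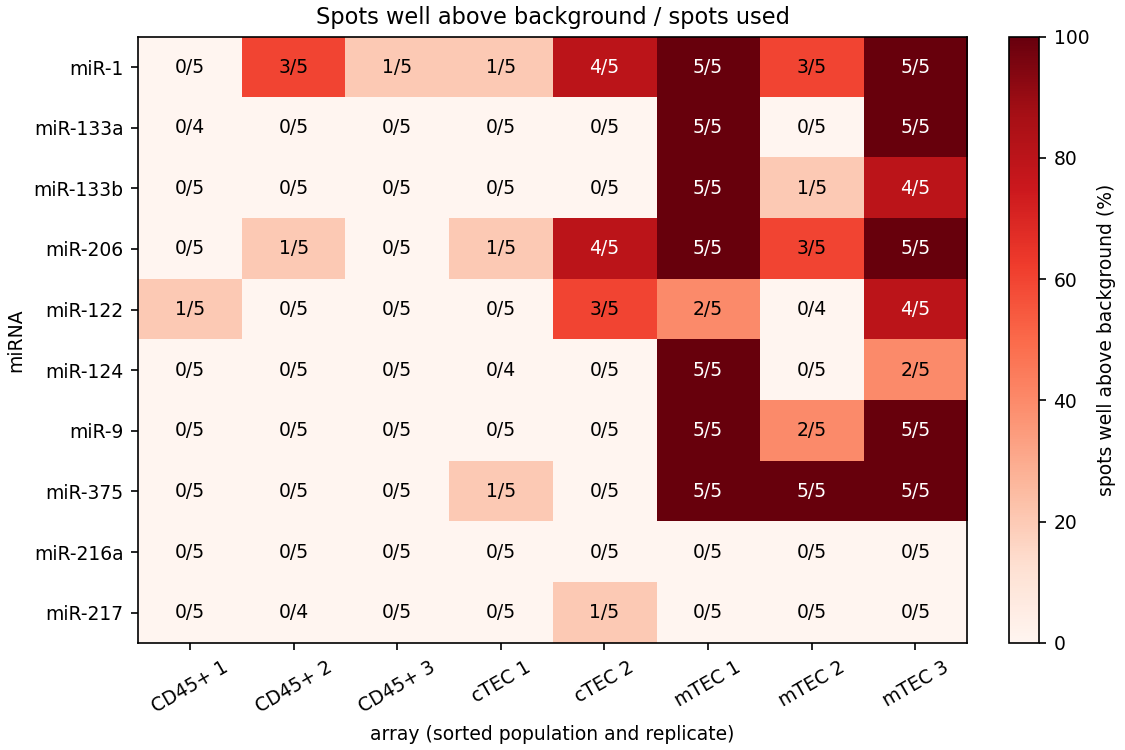
Number of spots well above background over spots used, for each of the 10 miRNAs (rows) on each of the 8 arrays (columns), with the color giving the percentage. The miR-375 row is full on the 3 mTEC arrays (15 of 15 spots) and has 1 marked spot on the other 5, while the rows of miR-216a and miR-217 hold 1 marked spot in all.

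mmu-miR-375, best known from pancreatic islets, where it restrains insulin secretion, and also made by other endocrine and secretory epithelial cells, was the one bright member. Its processed signal was 3617, 1351 and 1936 on mTEC replicates 1, 2 and 3. It was 71.5, 5.22 and 50.4 on the CD45+ arrays and 140 and 80.2 on the cTEC arrays. The lowest mTEC array therefore stood far above the highest array of either other group. Each array was then scaled by the 75th percentile of its signals for the 65 mouse miRNAs detected on all 8. After this step the mTEC values drew together to 1816, 1852 and 1745. Their mean was 1804 ± 54.4 (SD, n = 3), against 25.6 ± 20.0 (SD, n = 3) in CD45+ cells and 309 ± 43.4 (SD, n = 2) in cTECs.

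Because miR-375 was not well above background on any CD45+ or cTEC array, these groups give only an upper limit. Set against the lowest scaled signal well above background on each such array, miR-375 was at least 16.5-fold higher in mTECs than in CD45+ cells and at least 3.91-fold higher than in cTECs. The smaller limit against cTECs goes with the dimmer cTEC arrays, which scaling multiplied by 1.98 and 4.23, against 0.502 to 1.37 for the mTEC arrays. In the limma fit to all 8 arrays, with scaled spot signals under a common floor of 621.0 set to it, the log2 fold change was 1.54 (SE 0.025, Benjamini-Hochberg adjusted p = 5.39e-07) against CD45+ cells. Against cTECs it was 1.54 (SE 0.028, adjusted p = 1.04e-06), and both comparison groups lay at the floor on every array. These fold changes understate the difference, and the standard errors are small because arrays at the floor have no spread. miR-375 had entered the test through mTEC arrays alone, so its adjusted p here and in the fits below are given as a description. With no filter on dim probes, the limma adjusted p against CD45+ cells was 1.36e-06.

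The direction and the call of miR-375 held in all 21 limma fits with another way of processing that tested it. Against CD45+ cells the log2 fold change ran from 0.92 to 4.73, with adjusted p at most 0.00166. Against cTECs it ran from 0.88 to 3.34, with adjusted p at most 0.0188. The smallest value in both came from the log2 table the authors deposited, in which miR-375 stood at 12.24 to 12.27 in mTECs, 11.30 to 11.37 in CD45+ cells, and 11.32 and 11.43 in cTECs. The signals also did not overlap within either row of the slide. In the first row mTEC replicate 1 (3617) stood against CD45+ replicates 1 and 2 (71.5 and 5.22) and cTEC replicate 1 (140), and in the second row mTEC replicates 2 and 3 (1351 and 1936) stood against CD45+ replicate 3 (50.4) and cTEC replicate 2 (80.2).

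**Figure D2:**
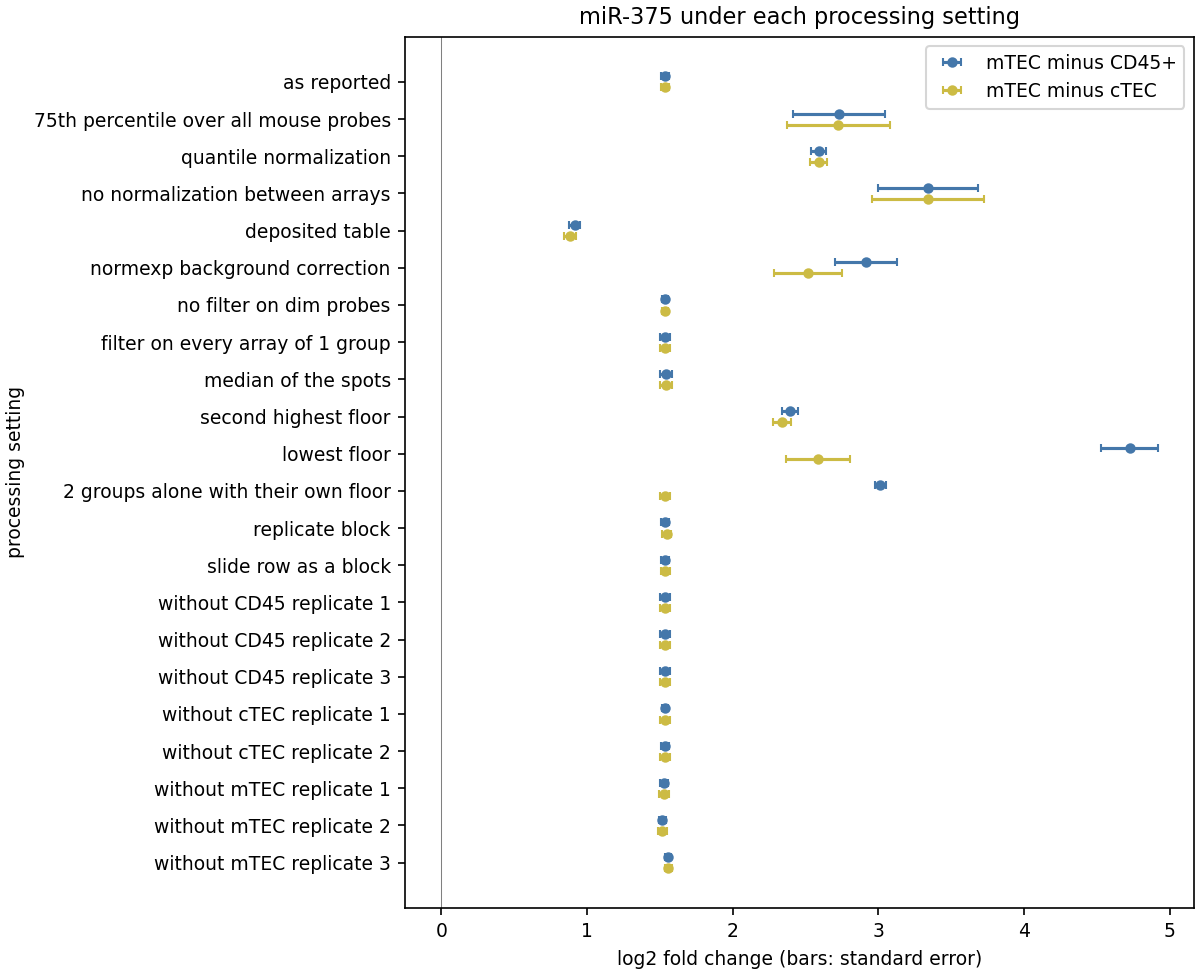
The log2 fold change of miR-375 in mTECs over CD45+ cells (blue) and over cTECs (yellow) on the horizontal axis, with standard errors as bars, for the reported fit and 21 alternatives listed on the vertical axis. All values lie above 0, from 0.88 to 4.73, the smallest on the deposited table and the largest against CD45+ cells with the lowest floor.

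The 3 named next resembled miR-375 most over the 8 arrays, by the Pearson correlation of the floored log2 signal among 225 candidates. These were miR-429 of the miR-200 family, miR-203 of stratified epithelium and miR-194 of gut and liver, each with r = 0.997, a value that rests on the 3 mTEC arrays against 5 at the floor (for miR-203, 3 at it and both cTEC arrays just above it). The scaled signal of miR-429 was 2321, 2256 and 1874 in mTECs, and that of miR-203 was 3631, 3840 and 4356. Neither was well above background on a CD45+ or cTEC array. For miR-1, miR-206 and miR-122 this measure gave r = 1 with miR-32* and other dim miRNAs, which reflects only that cTEC replicate 2 was the one array above the floor.

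The muscle miRNAs miR-133a and miR-133b, which act on proliferation and ion channels in skeletal and heart muscle, stood at background in CD45+ cells and cTECs. The processed signal of mmu-miR-133a was -10.3, -40.6 and -19.3 in CD45+ cells and -38.4 and -11.0 in cTECs. In mTECs it was 308, 71.4 and 168, and all 5 spots of replicates 1 and 3 but none of replicate 2 were well above background. The 3 mTEC values did not overlap the other 5, but replicate 2 was below its detection limit, as were all 5 others.

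miR-133b gave 24.1, -34.4 and 9.80 in CD45+ cells, -3.11 and 6.61 in cTECs, and 270, 121 and 158 in mTECs. It was well above background on mTEC replicates 1 and 3 only. Again the 3 mTEC values did not overlap the other 5, with replicate 2 and all 5 others below their limits. No lower limit of a fold change is given for either, since mTEC replicate 2 did not measure them.

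The muscle miRNAs miR-1 and miR-206, which promote muscle differentiation and share a seed, had a different profile. mmu-miR-1 gave 156, 169 and 142 in CD45+ cells, 147 and 209 in cTECs, and 282, 234 and 251 in mTECs. It was well above background on every mTEC array, on cTEC replicate 2 and on CD45+ replicate 2. miR-206, made mainly in skeletal muscle, gave 178, 167 and 149 in CD45+ cells, 131 and 182 in cTECs, and 292, 211 and 229 in mTECs. It passed on every mTEC array and on cTEC replicate 2. For both miRNAs the mTEC arrays lay above all others in processed signal, but by far less than for miR-375, and the values in CD45+ cells and cTECs were already near the detection limit. After scaling the order was another, with means for miR-206 of 214 ± 71.8 (SD, n = 3) in mTECs and 515 ± 359 (SD, n = 2) in cTECs.

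The brain miRNAs were dim. miR-9, which acts in neural progenitors, gave 81.6, 68.9 and 51.5 in CD45+ cells, 71.8 and 74.5 in cTECs, and 271, 161 and 166 in mTECs. It was well above background on mTEC replicates 1 and 3, and on no other array. miR-124, among the most abundant miRNAs of neurons, gave 19.9, -12.6 and -12.8 in CD45+ cells and -7.66 and -7.55 in cTECs. In mTECs it gave 265, 70.2 and 136, with all 5 spots of replicate 1, none of replicate 2 and 2 of replicate 3 well above background. For both, the 3 mTEC values did not overlap the other 5, but only 2 mTEC arrays measured miR-9 and 1 measured miR-124.

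miR-122, which makes up most of the miRNA of hepatocytes, gave 106, 124 and 114 in CD45+ cells, 120 and 178 in cTECs, and 169, 108 and 156 in mTECs. It was well above background on mTEC replicate 3 and cTEC replicate 2, and the groups overlapped. miR-216a, of the exocrine pancreas, ran from 4.82 to 63.6 over all 8 arrays, with mTEC values of 63.6, 4.82 and 61.6. Its neighbor miR-217 ran from 10.3 to 74.2, with mTEC values of 61.6, 25.4 and 40.6. The groups overlapped for both, and the detection limits of 109 to 163 on the mTEC arrays bound what these arrays could have shown. A signal under them was not detectable here, which does not show that it was absent.

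**Figure D3:**
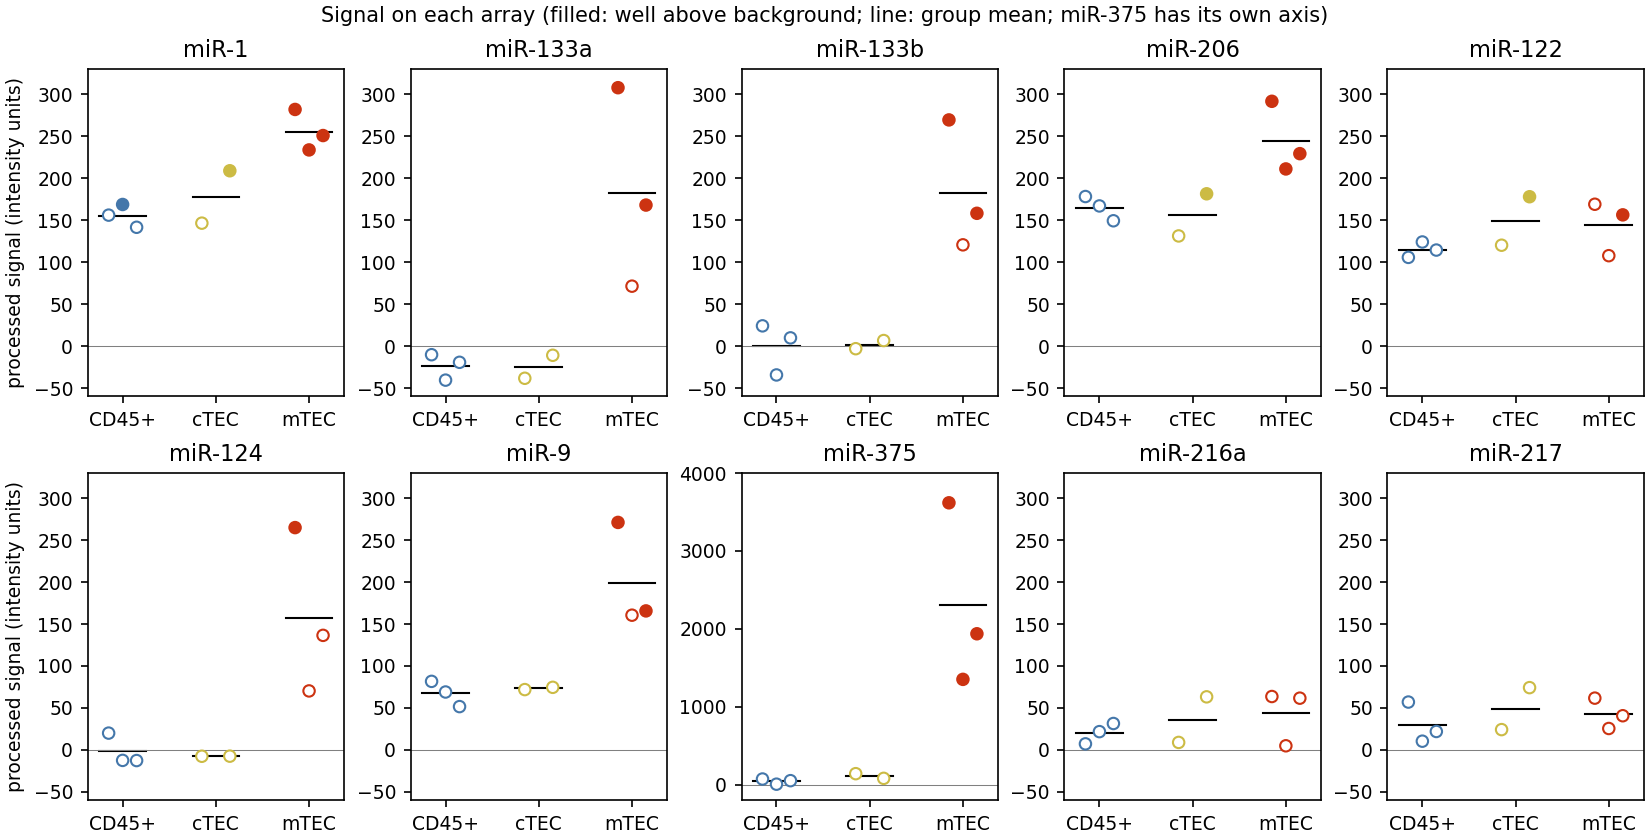
Processed signal (intensity units) of each of the 10 miRNAs on each array, by sorted population, with filled points well above background and a line at the group mean. The panel of miR-375 has its own axis, and the others share one. The mTEC points lie above the others for miR-1, miR-133a, miR-133b, miR-206, miR-124 and miR-9 and overlap them for miR-122, miR-216a and miR-217.

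For 7 of the 10 miRNAs, all but miR-122, miR-216a and miR-217, every mTEC array was above every other array in processed signal, as 11.2% of all mouse probes were. These counts include signals not well above background, such as the 71.4 of miR-133a and the 70.2 of miR-124 on mTEC replicate 2, where the detection limit was 163, and for them describe only where background-level values lay. This count depended on the scale. After scaling it was 4 of the 10 (miR-133a, miR-133b, miR-124 and miR-375, against 5.38% of all mouse probes), since the scaled cTEC values of miR-1, miR-206 and miR-9 rose to 885, 769 and 315 at the highest. Ranked among the 1040 mouse probes of its own array, which needs no scaling, it was 5 of the 10 (the same 4 and miR-9, against 5%). Against CD45+ cells alone, the counts were 7, 8 and 6 of the 10 on these 3 scales, beside 24.8%, 34.5% and 11.5% of all mouse probes.

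The ranks are given as a description, because most of them belong to signals not well above background. miR-375 stood at percentiles of 24.2 to 55.0 in CD45+ cells, 86.1 and 57.7 in cTECs and 94.8 to 95.1 in mTECs. In the same order of groups, miR-133a stood at 7.79 to 18, 11.1 and 10.7, and 48.9 to 81.8, miR-133b at 9.23 to 32.4, 24.9 and 17.3, and 68.3 to 79.9, and miR-124 at 16.9 to 29.5, 22.5 and 12.2, and 48.2 to 79.5. miR-9 stood at 50.1 to 59.4 in CD45+ cells, 68.0 and 54.0 in cTECs and 74.2 to 80.0 in mTECs. For miR-1 and miR-206 the ranks were 76.6 to 78.2 and 77.6 to 78.8 in CD45+ cells and at 79.3 to 84.7 and 77.8 to 83.5 in mTECs. In cTECs they were 86.5 and 93.8 for miR-1 and 85.3 and 92.6 for miR-206, the second of each pair on the one cTEC array that measured it. The median of the 10 differences between mTECs and CD45+ cells was 13.3 percentile points, beside -0.45 over all 1040 mouse probes, and 9 of the 10 were positive, beside 45.3% of all. Between cTECs and CD45+ cells it was 8.10 points (2.80 over all) with 7 of the 10 positive (59.9% of all), and between mTECs and cTECs 5.25 points (-2.31 over all) with 5 of the 10 positive (40.0% of all).

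**Figure D4:**
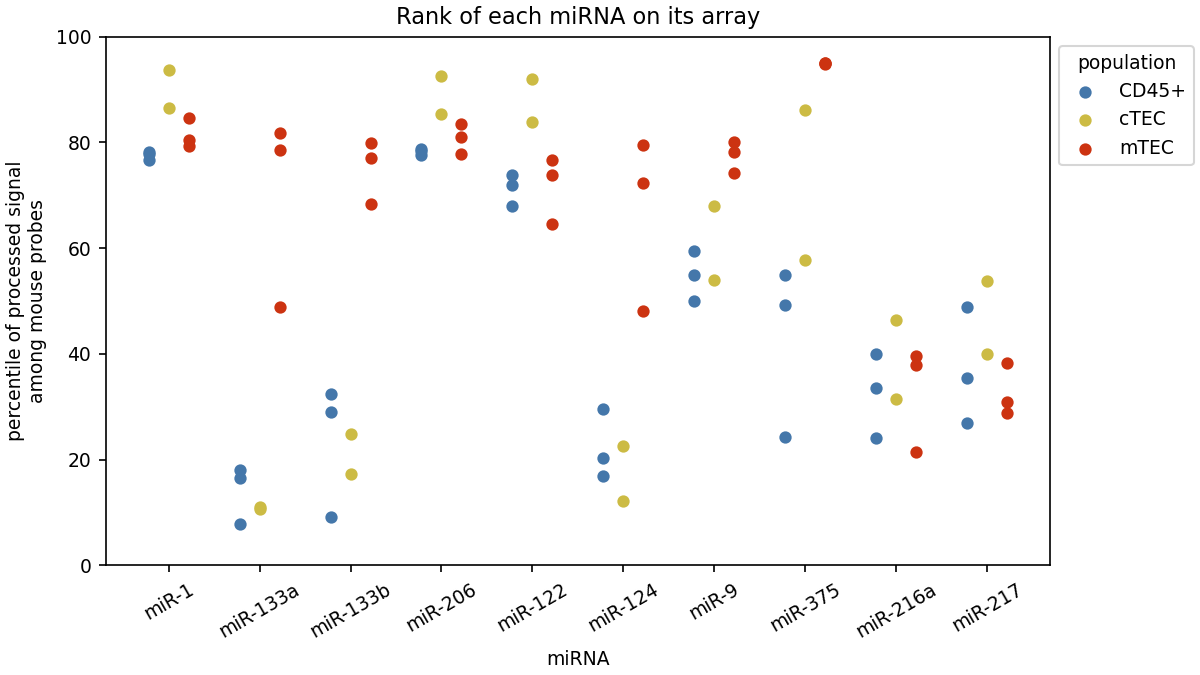
Percentile of each miRNA's processed signal among the 1040 mouse probes of the same array (vertical axis), with 1 point per array and the color giving the sorted population. The mTEC points of miR-133a, miR-133b, miR-124, miR-9 and miR-375 stand above all others, whereas those of miR-1, miR-206 and miR-122 lie at or below the cTEC points.

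For 7 of the 10 miRNAs, all but miR-124, miR-216a and miR-217, at least 2 arrays were well above background. These 7 entered the limma fit of 309 miRNAs, 29.7% of the mouse probes. In mTECs against CD45+ cells, 1 of the 7 was higher, miR-375, where 9.06% of the tested miRNAs were, and 0 were lower, where 14.9% were. In mTECs against cTECs 1 was higher, again miR-375 (16.2% of the tested), and 0 were lower (6.47%). In cTECs against CD45+ cells 0 were higher (10.7%) and 0 lower (20.1%), with adjusted p of 0.280 or more. The split of all calls into higher and lower moved with the setting. In mTECs against cTECs it was 50 to 20 as reported, 38 to 1 when the 75th percentile was taken from the whole mouse table, 32 to 37 with quantile normalization, 73 to 0 without normalization and 47 to 100 without cTEC replicate 1. In mTECs against CD45+ cells it was 28 to 46 as reported and 18 to 92 with that percentile. With the lowest floor, described below, it turned to 76 to 64 in this comparison and to 139 to 85 in cTECs against CD45+ cells. In cTECs against CD45+ cells it was 33 to 62 as reported, 6 to 114 with that percentile, 2 to 111 without normalization, 26 to 112 on the deposited table and 110 to 60 without cTEC replicate 1. The other 6 lay at the floor on every mTEC and CD45+ array, so this fit could not show a difference between these groups for them. In cTECs miR-1, miR-206 and miR-122 rose above the floor on replicate 2 alone, with log2 fold changes against CD45+ cells of 0.24 (SE 0.13), 0.15 (SE 0.081) and 0.14 (SE 0.079). Without cTEC replicate 1, when replicate 2 stands alone for its group, limma called these 3 higher in cTECs than in CD45+ cells (35.6% of the tested) and lower in mTECs than in cTECs (32.4%), by 0.29 to 0.48, with a standard error of 0.00053 because all the other arrays lay at the floor.

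The values under a lower floor rest in part on signals below detection. With the floor set from the mTEC and CD45+ arrays alone (223 in place of 621.0) and only these groups fitted, limma still called miR-375 alone among the 7, where 17.5% of the tested miRNAs were higher in mTECs. The next largest value was that of miR-1, at 0.19 (SE 0.13, adjusted p = 0.373). The lowest floor, 67.0, is the limit of mTEC replicate 1, and the scaled limits of the other 7 arrays ran from 80.2 to 621. With it, 5 of the 7 were higher in mTECs than in CD45+ cells, where 24.6% of the tested miRNAs were. They were miR-375 at 4.73 (SE 0.19), miR-1 at 1.28 (SE 0.45, adjusted p = 0.0453), miR-9 at 1.27 (SE 0.34, adjusted p = 0.0162), miR-133b at 1.01 (SE 0.23, adjusted p = 0.00763) and miR-133a at 0.94 (SE 0.26, adjusted p = 0.0168). In the same fit miR-1, miR-206, miR-122, miR-9 and miR-375 were higher in cTECs than in CD45+ cells too, by 1.58 to 2.49, where 45% of the tested miRNAs were, although miR-9 and miR-375 were well above background on no cTEC or CD45+ array. Of the 7 tested, 4 (miR-133a, miR-133b, miR-9 and miR-375) had entered the test through mTEC arrays alone, so that the number called higher in mTECs is given as a description. Between mTECs and cTECs this fit called miR-375 higher (23.3%) and miR-122 lower (18.4%), at -1.84 (SE 0.47, adjusted p = 0.0146). On the deposited table limma also called miR-133a higher in mTECs than in CD45+ cells, where 12.9% of the tested miRNAs were. It did so too after normexp background correction, where 15.9% were. But miR-133a was well above background on no CD45+ array and not on mTEC replicate 2. These calls therefore rest in part on signals below detection, and no size of a difference is read from them. With normexp limma also called miR-133a and miR-133b higher in mTECs than in cTECs (29.8% of the tested). Both were well above background on no cTEC array and not on mTEC replicate 2, so the same limit holds for these calls. In the same limma fit miR-1 was higher in cTECs than in CD45+ cells, at 0.57 (SE 0.19, adjusted p = 0.0294; 13.9%). Without normalization between arrays limma called miR-1 in addition to miR-375 in mTECs against CD45+ cells, at 0.29 (SE 0.076, adjusted p = 0.0354), where 8.41% of the tested miRNAs were higher.

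A miRNA hairpin gives a second, usually rarer strand, written with an asterisk in the table's naming. For 9 of the 10 miRNAs this strand had a probe, and 8 of the 9 were well above background on no array, as 59.8% of all mouse probes were. The exception was miR-9*, on 2 mTEC arrays, while miR-375* ran from -59.6 to -11.7 and miR-133b* from -25.5 to 17.8 in processed signal over the 8 arrays.

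Other tissue-restricted miRNAs were read from 5 lists of 71 names, of which 60 were on the table. Of these 60, 35 were well above background on no array (59.8% of all mouse probes), 5 on every mTEC array (16%) and 2 on every mTEC array and no other (1.63%). The limma fit tested 18 of them and called 1 higher (miR-194, beside 9.06% of all tested) and 1 lower (miR-128, beside 14.9%) in mTECs than in CD45+ cells. Against cTECs 1 was higher in mTECs (miR-194, beside 16.2%) and 0 lower (6.47%), and in cTECs against CD45+ cells 0 were higher (10.7%) and 1 lower (miR-128, beside 20.1%).

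In the liver, gut and kidney list, miR-192, miR-194 and miR-215, known from intestinal epithelium, liver and kidney and transcribed from common clusters, were well above background on every mTEC array. The scaled signal of miR-194 was 1035, 1124 and 1092 in mTECs, 168, 161 and 149 in CD45+ cells and 149 and 178 in cTECs. Its limma log2 fold change was 0.80 (SE 0.033, adjusted p = 1.53e-05) against CD45+ cells and 0.80 (SE 0.036, adjusted p = 4.35e-05) against cTECs. Both comparison groups lay at the floor, so that these values understate the difference. miR-192 was at 502, 488 and 405 in mTECs and between 49.1 and 73.0 on the other 5 arrays, but under the floor everywhere. miR-215 gave 195, 300.3 and 223 in mTECs, 38.2, 25.2 and 33.0 in CD45+ cells, and 111 and 306 in cTECs. miR-192 and miR-215 were the 2 listed miRNAs seen on every mTEC array and no other, whereas miR-802 and miR-122* were seen on none.

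Of the 14 brain and neural miRNAs on the table, 2 were well above background on every mTEC array (miR-138 and miR-149, beside 16% of all mouse probes, a like share) and 4 on every CD45+ array (miR-128, miR-138, miR-132 and miR-7a, beside 16.1%). The scaled mean of miR-138 was 537 ± 53.9 (SD, n = 3) in mTECs and 187 ± 3.64 (SD, n = 3) in CD45+ cells, and that of miR-149 was 544 ± 89.7 and 145 ± 20.8 (SD, n = 3 each). Neither passed the limma test, with adjusted p of 0.876 or more against CD45+ cells and values at or just over the floor. miR-128, abundant in brain, went the other way, at 2436, 3239 and 2495 in CD45+ cells, 530 and 456 in cTECs and 175, 140 and 175 in mTECs. Its limma log2 fold change in mTECs against CD45+ cells was -2.12 (SE 0.11, adjusted p = 2.81e-05). The scaled mean of miR-132 was 245 ± 28.0 (SD, n = 3) in CD45+ cells and 56.5 ± 25.9 (SD, n = 3) in mTECs, where no array was well above background. miR-7a gave 237 ± 8.22 in CD45+ cells and 206.5 ± 34.4 in mTECs (SD, n = 3 each), and both miRNAs were under the floor in these groups.

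None of the 32 miRNAs of embryonic stem cells and the germ line on the table was well above background on every array of any group, and 20 were on no array, near the 59.8% of all mouse probes. The other 12 were on at least 1 mTEC array and on no CD45+ or cTEC array, where 15.7% of all mouse probes were. Of these, 7 were on 2 mTEC arrays (21.9% of the 32, where 5.87% of all mouse probes were on at least 2 mTEC arrays and nowhere else), namely miR-290-5p, miR-291a-3p, miR-292-5p, miR-292-3p, miR-294, miR-295 and miR-465a-5p. They are named after their values were seen, the limma fit could not call a difference between mTECs and CD45+ cells because all 7 lay at the floor in both, and the first 6 come from 1 gene cluster, known from embryonic stem cells. Of the 5 other muscle miRNAs on the table, miR-208b of the heart was well above background on 1 mTEC array and the other 4 on no array, and all 4 further pancreas miRNAs on the table were on none, beside 59.8% of all mouse probes.

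**Figure D5:**
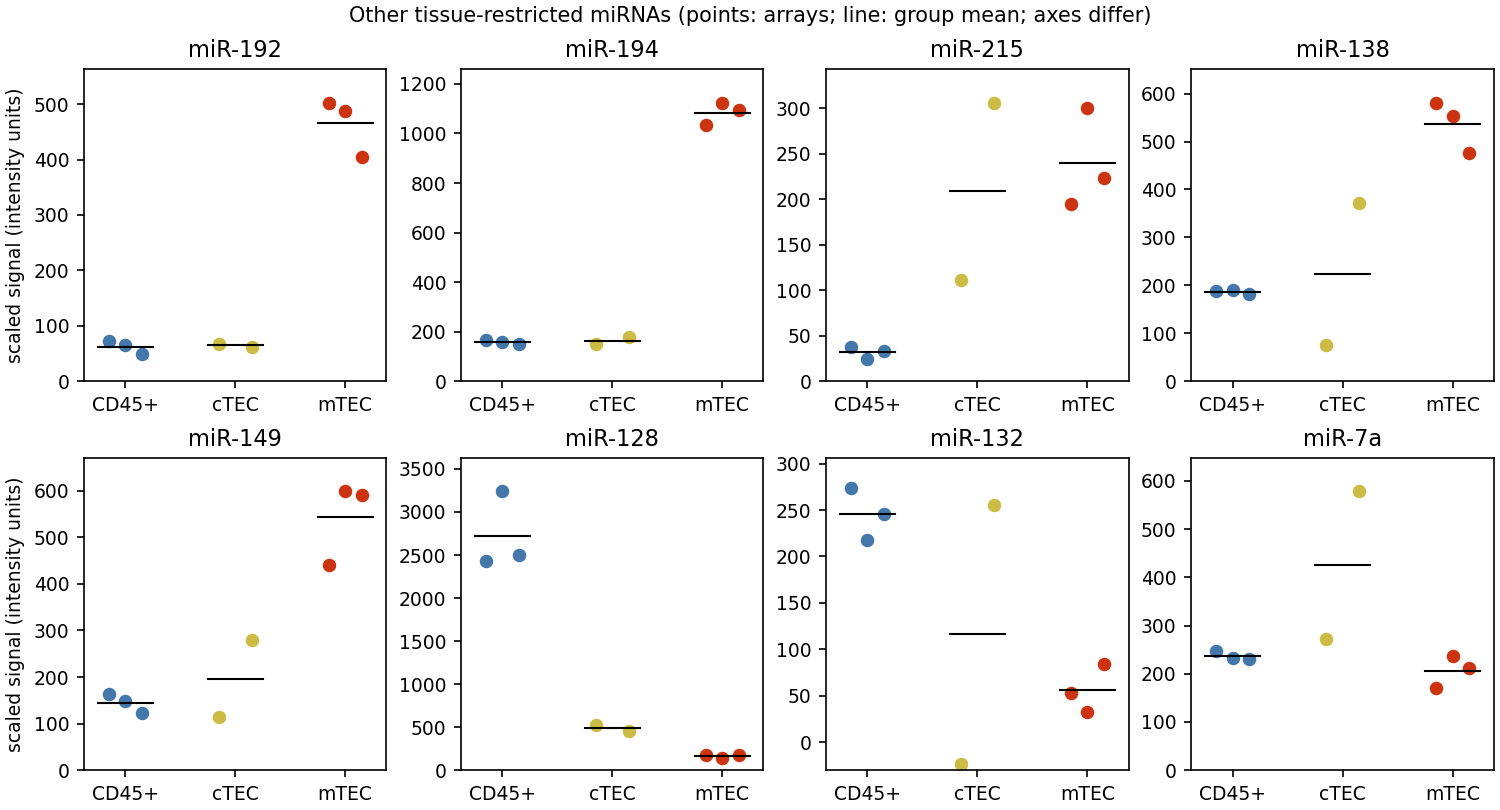
Scaled signal (intensity units, axes differ between panels) on each array for the 8 listed miRNAs well above background on every array of at least 1 population, with a line at the group mean. miR-192 and miR-194 are high on the 3 mTEC arrays and low on the other 5, miR-138 and miR-149 are highest in mTECs, and miR-128 is highest in CD45+ cells.

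Markers of other cell types moved with the same groups. Summed over 7 epithelial miRNAs (miR-205, miR-203 and the miR-200 family), the scaled signal was 36800 to 39058 in mTECs, 4442 and 8620 in cTECs and 623 to 704 in CD45+ cells, and limma called all 7 higher in mTECs than in either other group. Summed over 6 lymphocyte miRNAs it was 25991 to 30137 in CD45+ cells, 4103 and 5861 in cTECs and 3368 to 4742 in mTECs. Against CD45+ cells, limma called 5 of these 6 lower in mTECs and all 6 lower in cTECs. The exception in mTECs was miR-155, at -0.80 (SE 0.23, adjusted p = 0.0598). It was called higher in mTECs than in cTECs, at 1.22 (SE 0.26, adjusted p = 0.0190). On every mTEC array, 4 of the 6 were well above background. The 5 mesenchymal miRNAs (miR-143, miR-145, miR-214 and both strands of miR-199a) summed to 6294 to 6660 in mTECs, 2232 and 5117 in cTECs and 189 to 301 in CD45+ cells. Of the 5, limma called 2, miR-143 and miR-145, higher in mTECs and in cTECs than in CD45+ cells. miR-214 was well above background on 2 mTEC arrays and on no other array, and both strands of miR-199a were on no array. The 2 endothelial strands of miR-126 summed to 1527 and 2755 in cTECs, 497 to 550.1 in mTECs and 212 to 295 in CD45+ cells, and limma called 1 of them, miR-126-3p, higher in cTECs than in either other group. The 3 erythroid miRNAs (miR-451, miR-144 and miR-486) summed to 193 and 1151 in cTECs, 183 to 338 in mTECs and 92.0 to 152 in CD45+ cells, and of these only miR-144 was well above background, on 1 mTEC array. Both epithelial gates took only CD45-, EpCAM+ and MHC II+ events, and so were set to leave out CD45+ cells and cells without EpCAM. The part of other cell types that may have passed them in the signals of the muscle, brain and pancreas miRNAs was not tested.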

How the data were processed

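Total RNA of FACS-sorted CD45+ cells (3), cTECs (2) and mTECs (3) was labeled with Cy3 and hybridized to 8 single-color arrays of 1 slide, scanned once. The authors deposited the scanner output (Feature Extraction 10.7.3.1), from which the processed signal, an intensity after background subtraction, was used, and a quantile-normalized table on the log2 scale. The submitters' processing notes name limma. The table's columns of group means, fold changes and adjusted p-values from the authors' own comparisons were not used. The array's 2648 probes without a name in the table, and the genome build of the table's positions (not given in the sources used here), were left aside.

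Outlier spots were left out. Array signals were divided by the 75th percentile of the spot means of the 65 mouse miRNAs detected on all 8 arrays. For limma, each spot under 621.0, the highest of the arrays' lowest signals well above background, was set to it, and the log2 values (9.28 at the floor) were averaged over spots. The processed and scaled signals given in the text are spot means without a floor. limma 3.58.1 in R 4.3.3 was fitted to the 309 miRNAs detected on at least 2 arrays, of which 83 lay at the floor on every array, with 5 residual and 0.90 prior degrees of freedom. Benjamini-Hochberg adjustment ran over all 309, and calls needed an adjusted p under 0.05. The steps were tested on simulated data. The number of arrays limits the precision.

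All 10 members were named with their values, and of the lists those well above background on every array of at least 1 group, with a few others named for counts after their values were seen. The members, lists and tests were chosen with earlier results of these data known. Alternatives were other scalings, floors, filters and background corrections (normexp, offset 50), the deposited table, blocks for replicate number and slide row, other detection rules, and each array left out.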

Additional observations from a re-analysis of the deposited data

Results flagged for a closer look

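Among the 2648 array probes that have no name in the deposited mouse table, which no comparison above used, 17 (0.642%) were well above background on every mTEC array and on no CD45+ or cTEC array. This was picked out as a signal outside the named probes. The array is a multi-species design, so that probes without a mouse name may have been made for other species. What these 17 probes detect was not tested. Among the 1040 named mouse probes the same pattern was shown by 17 (1.63%), miR-375 among them, and none of the 616 negative control spots was well above background.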

How the results depend on the processing

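The higher level of miR-375 in mTECs kept its direction and call in all alternatives that tested it, and dropped out where the test was limited to miRNAs detected on all 8 arrays. The number of the 10 miRNAs called in mTECs against CD45+ cells (1) became 2 without normalization, on the deposited table and with normexp, 0 with the filter on all 8 arrays, and 5 with the lowest floor. In cTECs against CD45+ cells (0) it became 1 with normexp and 5 with the lowest floor, and in mTECs against cTECs (1) it became 3 with normexp, 0 with the filter on all 8 arrays and 2 with the lowest floor. The count over all 309 tested miRNAs in mTECs against CD45+ cells (74) became 92 without normalization, 121 on the deposited table, 128 with normexp, 140 with the lowest floor and 123 with the 2 groups alone. In cTECs against CD45+ cells (95) it became 169 with normexp and 224 with the lowest floor, and in mTECs against cTECs (70) 39 when the 75th percentile came from the whole mouse table, 119 with normexp and 129 with the lowest floor. The filter on all 8 arrays left 65 miRNAs to test, of which 31, 53 and 38 were called in these comparisons. Leaving out each array in turn gave 67 to 75 calls and 1 of the 10 in mTECs against CD45+ cells, 82 to 170 calls and 0 to 3 of the 10 in cTECs against CD45+ cells, and 58 to 147 calls and 1 to 4 of the 10 in mTECs against cTECs. The highest counts of the last 2 came without cTEC replicate 1. The number of the 10 well above background on every mTEC array (3) became 5 when 1 spot sufficed (23% of all mouse probes), 1 when all spots were required (13.4%) and 8 with the software's less strict flag of a positive and significant signal (58.6%), on every cTEC array (0) 2 when 1 spot sufficed (12.2%) and 6 with that flag (50.3%), and on every CD45+ array (0) 4 with that flag (44.8%). With an array left out it was 3 to 6 in mTECs (6 without mTEC replicate 2, beside 24.9% of all mouse probes) and 0 in CD45+ cells. In cTECs it was 0 to 3 (3 without cTEC replicate 1, beside 9.42% of all mouse probes on cTEC replicate 2). Signs turned for small uncalled differences: without normalization, cTECs against CD45+ cells gave -0.010 for miR-206 and -0.0035 for miR-122, and mTECs against cTECs gave 0.25 for miR-1, 0.28 for miR-206 and 0.0079 for miR-122, while the deposited table gave 0.015 for miR-206 in mTECs against cTECs. The causes of these changes were not tested.

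The labels do not say whether arrays of the same replicate number came from the same pool, and the reported fit did not pair them. The correlations of deviations between arrays of the same number ran from -0.217 to 0.278. With so few arrays these values cannot decide whether the arrays were paired. With the replicate number as a block, 69, 86 and 60 miRNAs were called in the 3 comparisons (mTECs against CD45+ cells, cTECs against CD45+ cells, mTECs against cTECs), and miR-375 in mTECs kept log2 fold changes of 1.54 (limma adjusted p = 0.000143) and 1.55 (adjusted p = 0.000392). Signals below an array's lowest signal well above background are no detected level, and statements that groups did not overlap describe the values only where they include such signals.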
